A study of Oryctolagus cuniculus with 8 samples.

Results

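The genes of fatty acid synthesis, desaturation and elongation were followed in the rabbit retina across 4 diets. The set held 10 genes chosen by name for their place in the pathway: ACLY, ACACA, FASN, SCD, SREBF1, ELOVL2, ELOVL4, ELOVL6, FADS1 and FADS2. The table of 25666 genes, 19293 of them protein-coding, had rows for 7 of the 10. FASN, SCD and SREBF1 were not analysed here, since no row carried these symbols and 5996 protein-coding rows carried no symbol at all. All 7 measured genes passed the filter on low values and were among the 12204 protein-coding genes tested.

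The retinas came from male wild-type Chinchilla rabbits, 12 to 16 weeks old at purchase and kept on their diet for 6 months. Standard chow was the normal diet (ND). The high-fat diet (HFD) was this chow with 10% lard and 0.5% cholesterol, the high-sucrose diet (HSD) had 40% sucrose, and the combined diet (HFSD) had 35% sucrose on top of the lard and cholesterol of HFD. RNA of 2 retinas was sequenced for each diet, 8 libraries in all, and expression was given as FPKM, fragments scaled to gene length and library depth. Whether the 2 retinas of a diet came from different rabbits is not stated, so p values measure the spread between these retinas only.

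Animal cells make fatty acids from citrate that leaves the mitochondria. ACLY, ATP citrate lyase, cuts citrate to acetyl-CoA, ACACA carboxylates it to malonyl-CoA, and FASN builds palmitate from both. Elongases of the ELOVL family lengthen the chain and desaturases such as SCD, FADS1 and FADS2 add double bonds. In liver this programme is switched on by insulin through SREBP1, the product of SREBF1, and by sugar through the transcription factor ChREBP. The retina is known for another end of the pathway: photoreceptor outer segments are rich in docosahexaenoic acid and in very long chain polyunsaturated fatty acids. FADS2, FADS1 and ELOVL2 act on the way to the former and ELOVL4 makes the latter.

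The depths by which FPKM had been divided, recovered from the steps of the values, ran from 15764577 to 22785832 fragments. Summed markers of rods (6 of 8 listed genes found, 28576 to 40436 FPKM per retina) and of cones (5 of 6, 451 to 933 FPKM) were high in every library. Muscle markers summed to 451 FPKM in HSD replicate 2 and to between 2.51 and 4.44 FPKM in the other retinas. In whole tissue, fewer cells of a type and less RNA per cell cannot be told apart.

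ELOVL4 was the most abundant of the 7 genes, with a mean of 199 FPKM over 8 retinas, and it ranked 388th among the protein-coding genes. ELOVL2 followed at 86.3 FPKM, ACLY at 53.3, FADS1 at 41.3, FADS2 at 29.7, ACACA at 8.78 and ELOVL6 at 8.29. The ranges of neighbouring genes in this order did not overlap between ELOVL4 and ELOVL2, between ELOVL2 and ACLY, or between FADS2 and ACACA. ACLY overlapped FADS1, FADS1 overlapped FADS2, and ACACA overlapped ELOVL6. In the plot of single retinas the diet means of FADS2 spread widely, with HFD overlapping ND, and those of ELOVL4 lay in a narrow band.

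**Figure D1:**
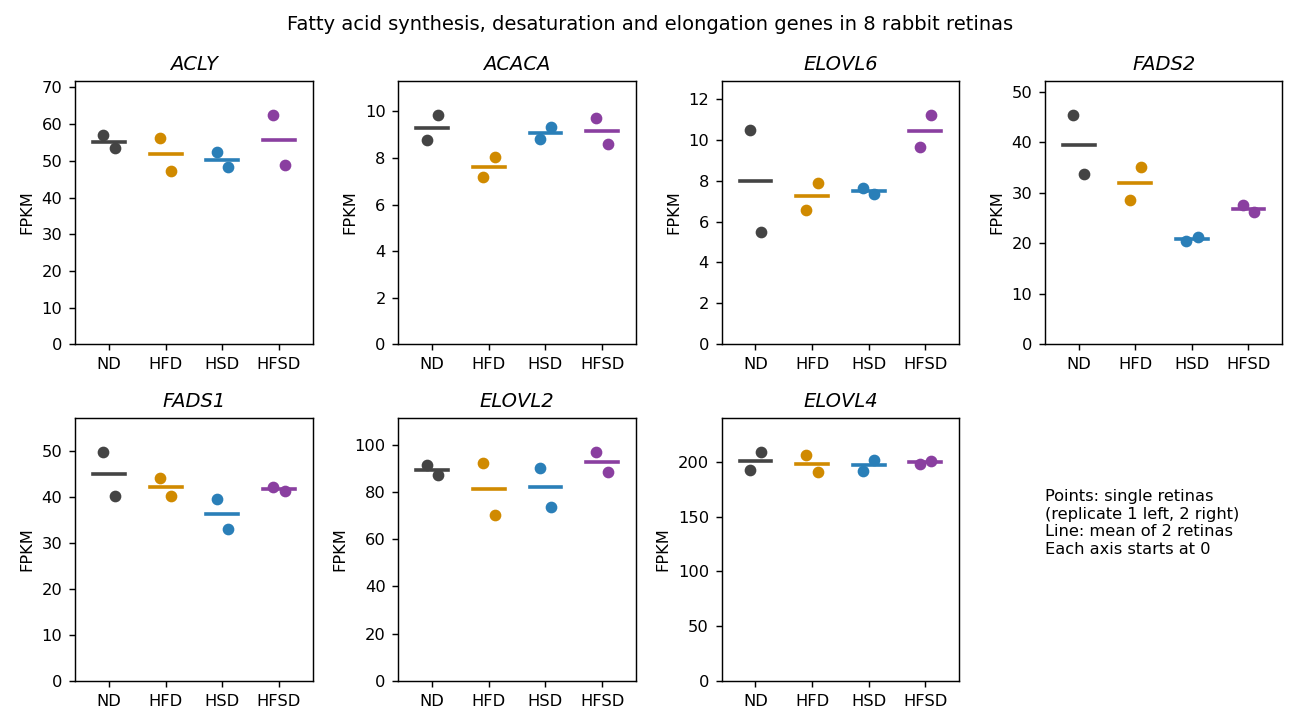
FPKM of the 7 measured genes (y axes, linear and starting at 0) by diet (x axes), with a point for each retina and a line at the mean of 2 retinas. FADS2 lay between 20.4 and 27.5 FPKM in the 4 retinas with sucrose and between 28.6 and 45.3 in the other 4. This separation ended when FPKM were rescaled to a common sum. ELOVL4 stayed between 191 and 209 FPKM.

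FADS2 encodes the desaturase that takes the initial, rate-limiting step from dietary linoleic and linolenic acid towards long polyunsaturated fatty acids. It measured 45.3 and 33.6 FPKM in ND, 28.6 and 35.1 under HFD, 20.4 and 21.3 under HSD, and 27.5 and 26.1 under HFSD. Both HSD retinas were the lowest of all, both HFSD retinas came next, and no retina of a diet with sucrose reached the level of a retina without it. These values rest on 436 to 1200 fragments per retina. Over the 8 retinas FADS2 had a coefficient of variation of 27.4%, larger than that of 94.9% of the 4177 genes within 2-fold of its level, whose median was 11.3%.

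The mean of FADS2 was 39.5 ± 8.27 FPKM in ND (SD, n = 2), 31.8 ± 4.6 under HFD, 20.9 ± 0.604 under HSD and 26.8 ± 1.02 under HFSD. Against ND, its log2 fold change of FPKM + 1 was -0.87 in HSD (SE 0.16, 95% interval -1.26 to -0.49) and -0.53 in HFSD (SE 0.16, interval -0.91 to -0.14). The unadjusted p values of limma were 0.000917 and 0.0138, and after Benjamini-Hochberg adjustment over all genes tested they were 0.238 and 0.529. FADS2 ranked 47th by p among 12204 genes in HSD. In HFD the log2 fold change was -0.29 (SE 0.16, limma adjusted p = 0.998), with an interval from -0.68 to 0.09. FADS2 therefore did not pass the adjusted threshold of 0.05 in any of these comparisons.

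With the diets joined by sucrose, FADS2 averaged 23.8 ± 3.5 FPKM in the 4 retinas with sucrose and 35.7 ± 7.03 FPKM in the 4 without (SD). The log2 fold change was -0.55 (SE 0.12, interval -0.82 to -0.28) with a limma adjusted p of 0.0999, and the lower direction held in 4 of 4 retinas. The highest retina with sucrose, 27.5 FPKM in HFSD replicate 1, and the lowest without, 28.6 FPKM in HFD replicate 1, were close together. When FPKM were rescaled to the same sum in every library, HFD replicate 1 had 43.7 TPM, a level scaled to the sum of all genes, against 48.3 and 45.8 TPM in HFSD, so that the separation ended, and the log2 fold change was -0.48.

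Lard and cholesterol left FADS2 at a log2 difference of 0.03 (SE 0.12, limma adjusted p = 1), a sign that turned when FPKM were rescaled. The interaction of fat and sucrose, HFSD minus HFD minus HSD plus ND, was 0.64 on the log2 scale (SE 0.23, interval 0.10 to 1.18). Its unadjusted p was 0.0265 and its limma adjusted p 0.999, so that a smaller effect of sucrose beside lard was not established.

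Summed FPKM of Müller glia, microglia and cone markers also lay apart between diets with and without sucrose. Those of myelin, pigment epithelium and astrocyte markers overlapped. Müller glia markers (5 of 5 found) summed to 1207 to 1426 FPKM in the retinas with sucrose and to 2019 to 2863 FPKM in those without, and 3 of the 5 were lower at an unadjusted p below 0.05 while 0 were called by limma. Microglia markers (8 of 8) summed to 9.86 to 14 FPKM with sucrose and 14.5 to 25.5 without. The nearest retinas were HFSD replicate 2 at 14 and ND replicate 2 at 14.5. They differed by less than their FPKM sums over all genes, 569344 and 611233, so that rescaling to a common sum would end this separation. Myelin markers (6 of 7) ran from 45.4 to 154 FPKM against 95.7 to 699, and astrocyte markers (4 of 4) from 237 to 477 against 379 to 1124. Pigment epithelium markers (9 of 9) summed to 317 and 239 FPKM in ND and to 77.9 and 45.6 under HFD. With sucrose they ran from 24.4 to 68.7 FPKM, so that they were lower than in ND under HFD as well. At an unadjusted p below 0.05, 6 of 6 myelin markers tested, 6 of 7 pigment epithelium markers, 4 of 8 microglia markers and 1 of 3 astrocyte markers were lower with sucrose, and 0 were called by limma. Over all genes tested in this comparison 18.3% passed the unadjusted threshold and 0.344% were called. Cone markers went the other way, from 770 to 933 FPKM with sucrose and from 451 to 597 without, and 2 of 5 were called higher by limma. Rod markers overlapped, at 28576 to 32939 and 30586 to 40436 FPKM. Markers of adipocytes (5 of 8 found, 4.49 to 11.7 FPKM), endothelium (6 of 6, 99.8 to 146 FPKM), fibroblasts and sclera (5 of 5, 15.4 to 48.6 FPKM) and blood (2 of 4, 0.00924 to 1.21 FPKM) overlapped between diets with and without sucrose. The highest adipocyte sum and the highest fibroblast and sclera sum were both those of HSD replicate 2, the retina with muscle markers at 451 FPKM. The other retinas held 4.49 to 8.73 and 15.4 to 25.2 FPKM. No list had all its markers at 0. The part of these cells in the FADS2 values was not tested.

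**Figure D2:**
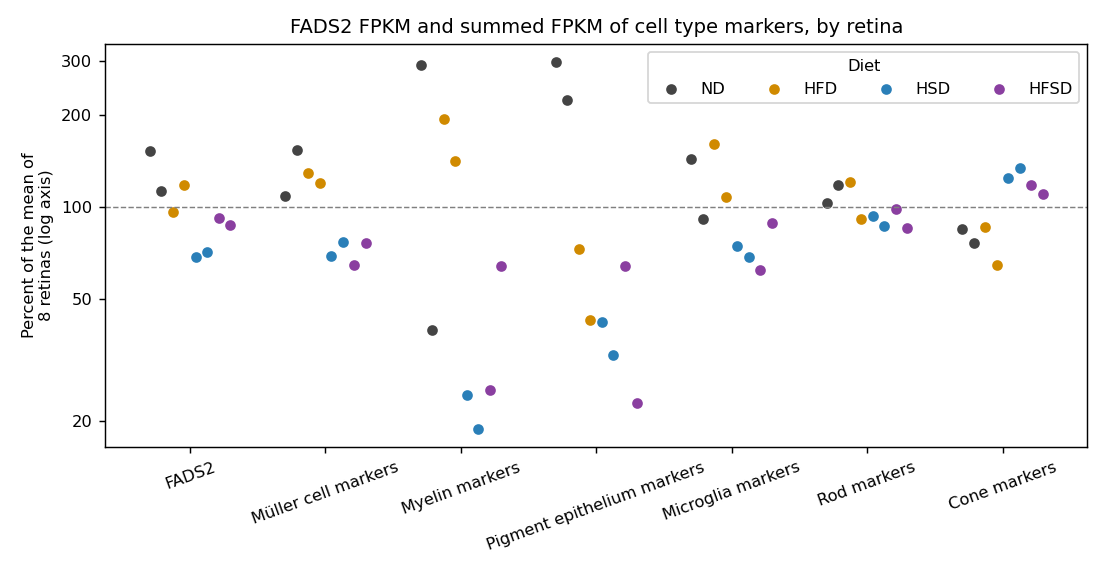
FADS2 FPKM and the summed FPKM of 6 lists of cell type markers, each as a percent of its mean over 8 retinas (y axis, log scale), with a point for each retina coloured by diet. FADS2, Müller cell and microglia values were all lower in the 4 retinas with sucrose (microglia 9.86 to 14 FPKM against 14.5 to 25.5), while cone markers were all higher. The FADS2 separation ended when FPKM were rescaled to a common sum, and that of microglia markers would end too.

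FADS1, which makes the later desaturation in the same series, measured 49.7 and 40.1 FPKM in ND, 44.1 and 40.2 under HFD, 39.6 and 32.9 under HSD, and 42.1 and 41.3 under HFSD. Both HSD retinas lay below all other retinas, the nearest of which was ND replicate 2. The log2 fold change of HSD against ND was -0.30 (SE 0.14, interval -0.63 to 0.03, limma adjusted p = 0.734), within what the spread between retinas allows. Without ND replicate 1 it was -0.15, without HSD replicate 2 -0.17 and without ND replicate 2 -0.45. FADS2 over FADS1 was 0.517 to 0.654 in retinas with sucrose and 0.648 to 0.912 in those without, an overlap in HFD replicate 1 alone. In the RefSeq annotation of assembly mOryCun1.1, FADS2, FADS3 and FADS1 lie next to each other. FADS3, whose product acts mainly on sphingolipid bases, measured 16.9 to 23.4 FPKM, and FADS2 over FADS3 was 1.03 to 1.26 with sucrose and 1.55 to 2.29 without.

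ELOVL4 extends fatty acids to the very long chains of photoreceptor membranes, and its mutation causes a dominant macular dystrophy in people. Its values were 193 and 209 FPKM in ND, 206 and 191 under HFD, 192 and 202 under HSD, and 198 and 201 under HFSD, from 5561 to 8264 fragments. The diets overlapped throughout. Its coefficient of variation, 3.38%, was larger than that of 0.279% of the 715 genes within 2-fold of its level, whose median was 12.2%. In its comparison with the smallest p, HSD against ND, the log2 fold change was -0.03 (SE 0.11, interval -0.29 to 0.23, limma adjusted p = 0.968), and the sign turned in some alternatives. The interval still allows a change of 0.29 on the log2 scale.

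ELOVL2 lengthens polyunsaturated chains on the way to docosahexaenoic acid. It measured 91.5 and 87.3 FPKM in ND, 92.1 and 70.1 under HFD, 90.1 and 73.7 under HSD, and 96.9 and 88.5 under HFSD. In both HFD and HSD, replicate 2 was the lower retina and replicate 1 lay near the ND retinas. Its smallest p fell in the interaction, where the log2 difference was 0.33 (SE 0.23, limma adjusted p = 0.999). ELOVL4 supplied 56.9% to 65.6% of the summed FPKM of the 7 ELOVL genes in each retina, and ELOVL2 22.9% to 28.9%. ELOVL4 over ELOVL2 ranged from 2.04 to 2.74 with sucrose and from 2.11 to 2.72 without.

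**Figure D3:**
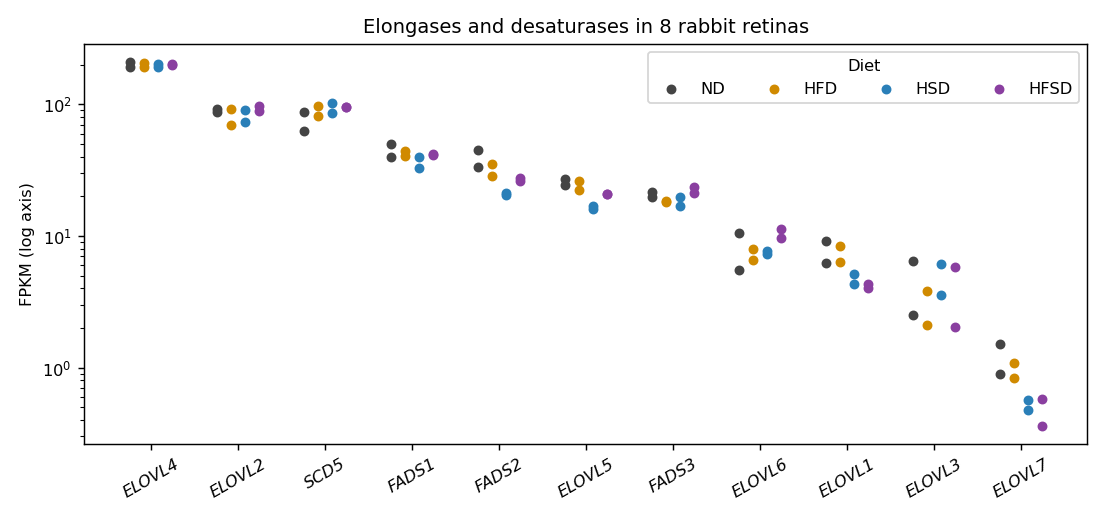
FPKM (y axis, log scale) of the 7 ELOVL elongases and of the desaturases FADS1, FADS2, FADS3 and SCD5 (x axis), with a point for each of 8 retinas coloured by diet. ELOVL4 at 191 to 209 FPKM stood above all, and FADS2 lay between 20.4 and 27.5 FPKM in the 4 retinas with sucrose and between 28.6 and 45.3 FPKM in the 4 without, a separation that ended when FPKM were rescaled to a common sum.

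ELOVL6 takes palmitate, the product of FASN, to stearate, and in liver it is a target of both SREBP1 and ChREBP. It measured 10.5 and 5.5 FPKM in ND, 6.58 and 7.9 under HFD, 7.66 and 7.34 under HSD, and 9.66 and 11.2 under HFSD, from 100 to 226 fragments. The ND retinas differed 1.91-fold, and the other 3 diets lay between them except for HFSD replicate 2. The counting error of that ratio was 12.1% (SD). The HFSD log2 fold change against ND was 0.40 (SE 0.25, interval -0.20 to 0.99, limma adjusted p = 0.724). Without ND replicate 2 it was -0.01 and without ND replicate 1 it was 0.81.

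ACLY and ACACA stand at the entry of the pathway. ACLY measured 57.0 and 53.5 FPKM in ND, 56.3 and 47.3 under HFD, 52.3 and 48.3 under HSD, and 62.4 and 48.9 under HFSD. Both HSD retinas were below both ND retinas, while the HFSD retinas were the highest and the third lowest of the 8. Its smallest p fell in the interaction, where the log2 difference was 0.23 (SE 0.21, limma adjusted p = 0.999). ACACA measured 8.76 and 9.83 FPKM in ND, 7.17 and 8.05 under HFD, 8.80 and 9.32 under HSD, and 9.70 and 8.59 under HFSD. The 2 HFD retinas were the lowest of the 8, with a log2 fold change of -0.26 against ND (SE 0.13, interval -0.57 to 0.05, limma adjusted p = 0.998). ACACB, the isoform that sits at mitochondria and restrains fatty acid oxidation, was lower throughout, and ACACA over ACACB was 3.67 to 5.67.

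No member of the set was called at an adjusted p below 0.05 in any of 6 comparisons by limma on log2(FPKM + 1). Recovered fragments fitted with voom called 0 members as well. The smallest adjusted p of any member under the main setting and 18 alternative fits was 0.0658, that of FADS2 between diets with and without sucrose when ND replicate 2 was left out. Of all 12204 genes, the share called was 0.00819% in HFD, 0.0574% in HSD, 0.0164% in HFSD, 0.344% between diets with and without sucrose, 0.00819% between diets with and without lard and cholesterol, and 0.00819% in the interaction. Calls were thus rare over all genes, and 0 of 7 members is no departure from that.

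At an unadjusted p below 0.05, 0 of 7 members passed in HFD, where 4.31% of all genes did. In HSD 1 of 7 passed beside 7.20% of all genes, in HFSD 1 of 7 beside 8.07%, and between diets with and without sucrose 1 of 7 beside 18.3%. With lard and cholesterol 0 of 7 passed beside 3.20%, and in the interaction 1 of 7 beside 3.74%. The member was FADS2 each time.

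The median log2 fold change of the 7 members was -0.10 in HFD and -0.13 in HSD, with all 7 lower in both, beside medians of 0.0063 and -0.0018 over all genes tested. It was -0.01 in HFSD, with 3 higher and 4 lower, beside -0.004. Between diets with and without sucrose it was -0.0097, with 3 higher and 4 lower, and between diets with and without lard and cholesterol 0.02, with 5 higher and 2 lower. In the interaction it was 0.29, with all 7 higher, beside 0.011 over all genes tested. The 3 comparisons with ND and the interaction share the same 2 ND retinas, so that their directions are not separate evidence.

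**Figure D4:**
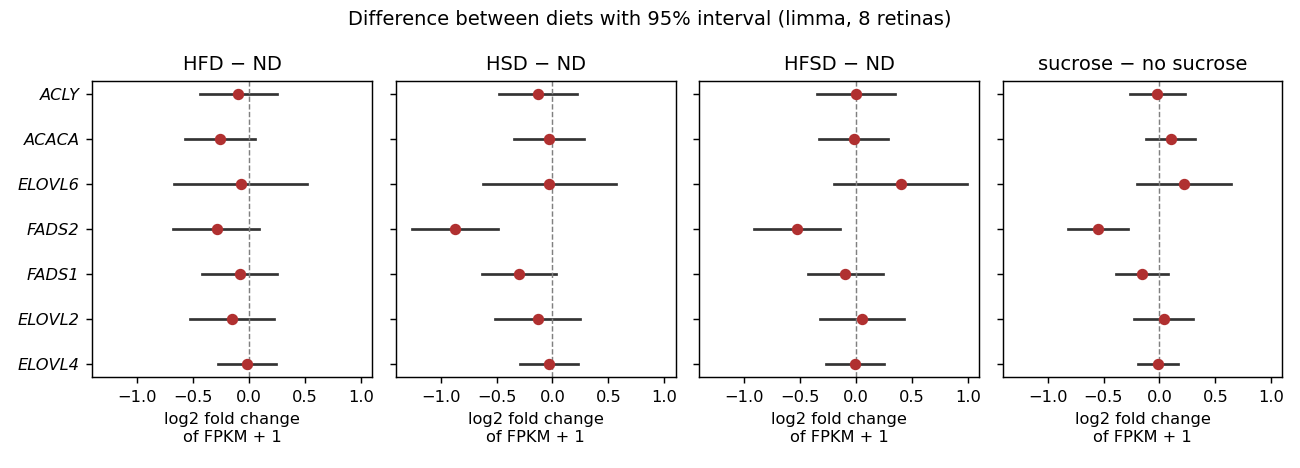
Log2 fold change of FPKM + 1 (x axes) of the 7 measured genes (y axis) in 4 comparisons from the limma fit of 8 retinas, with points at the estimate and lines over its 95% interval. The interval of FADS2 ended below 0 in HSD (-1.26 to -0.49), HFSD (-0.91 to -0.14) and between diets with and without sucrose (-0.82 to -0.28), before adjustment for 12204 genes, and all other intervals shown crossed 0.

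Counts of groups that did not overlap gave a like picture. In HFD both retinas lay on one side of both ND retinas for 1 of 7 members, ACACA, and for 25.9% of all genes. In HSD this held for 3 of 7, ACLY, FADS1 and FADS2, beside 39.0% of all genes, and in HFSD for 1 of 7, FADS2, beside 42.3%. All 4 retinas with sucrose lay on one side of all 4 without for 1 of 7 members, FADS2, and for 12.9% of all genes. For lard and cholesterol this was so for 0 of 7 members and for 1.34% of all genes. By the fold rule of the study on group means, (mean + 1) over (ND mean + 1) below 0.65 or above a matching upper limit, 1 of 7 members passed in HSD, FADS2 at 0.54, where 3.95% of protein-coding genes did. In HFD and HFSD 0 of 7 passed, beside 1.76% and 3.43%. FADS2 in HFSD missed the limit at 0.687. It passed there without ND replicate 2, and ELOVL6 passed without ND replicate 1.

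The other genes of the pathway were taken from 7 lists, and 0 of their genes were called in any of the 6 comparisons by limma. The list of the elongation cycle had 10 genes, of which 8 were tested. Between diets with and without sucrose ELOVL1, ELOVL5, HSD17B12, the ketoacyl-CoA reductase of the cycle, and HACD3, a dehydratase of the cycle, were lower at an unadjusted p below 0.05, a threshold that 18.3% of all genes tested passed in either direction. ELOVL7 was lower at that threshold too, but it reached 1 FPKM only in retinas without sucrose (1.51 in ND replicate 1 and 1.09 in HFD replicate 1), so that it entered the tests only through the group where it was high. None of the 8 was higher at that threshold.

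ELOVL5, the elongase that follows FADS2 in the series from linoleic and linolenic acid, measured 27.3 and 24.3 FPKM in ND, 22.4 and 26.3 under HFD, 16.1 and 16.8 under HSD, and 20.7 and 20.9 under HFSD. The order of the diets was that of FADS2 at its low end, with HSD lowest and HFSD next. Its log2 fold change in HSD was -0.62 (SE 0.12, limma adjusted p = 0.246). ELOVL1, which makes saturated and monounsaturated very long chains for sphingolipids, measured 6.25 to 9.13 FPKM without sucrose and 4 to 5.14 with, a log2 difference of -0.63 (SE 0.15, limma adjusted p = 0.113). HSD17B12, the highest of the list, had a log2 difference of -0.28 between the same groups (SE 0.11, limma adjusted p = 0.248). The summed Müller glia and microglia markers given beside FADS2 were lower in the same retinas and the cone markers higher, and their part in these values was not tested.

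Of 6 listed desaturation genes, 4 were tested. SCD5, a stearoyl-CoA desaturase known from brain, was the highest, with 88.1 and 62.4 FPKM in ND and 81.7 to 103 in the other diets, a range that overlapped ND replicate 1. Its log2 fold change in HFSD was 0.36 (SE 0.18, limma adjusted p = 0.667). CYB5A and CYB5R3, which carry electrons to the desaturases, were lower with sucrose at an unadjusted p below 0.05, which 18.3% of all genes tested passed, with log2 differences of -0.25 (SE 0.09, limma adjusted p = 0.233) and -0.27 (SE 0.09, adjusted p = 0.209).

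Of 15 genes of acetyl-CoA and NADPH supply and of mitochondrial synthesis, 14 were tested, and 2 were lower with sucrose and 0 higher at an unadjusted p below 0.05, a share no larger than the 18.3% of all genes. These were HSD17B8, a reductase of mitochondrial fatty acid synthesis, with a log2 difference of -0.33 (SE 0.09, limma adjusted p = 0.158), and SLC25A1, the mitochondrial citrate carrier. OXSM, the condensing enzyme of the mitochondrial pathway, measured 10.1 to 11.5 FPKM in the 4 retinas without lard and cholesterol and 7.55 to 8.59 in the 4 with. That log2 difference was -0.44 (SE 0.09, unadjusted p = 0.00159, limma adjusted p = 1). MDH1, the cytosolic malate dehydrogenase, was the most abundant at 473 to 602 FPKM.

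Of 19 regulators, 16 were tested. Between diets with and without sucrose 2 were higher at an unadjusted p below 0.05, THRSP and PRKAA2, a catalytic subunit of AMP-activated kinase. Another 3 were lower: MID1IP1, INSIG1, which holds SREBP in the endoplasmic reticulum, and NR1H3, the sterol receptor LXR alpha. Over all genes tested, 18.3% passed this threshold in either direction. THRSP, known as Spot 14 and induced by carbohydrate in liver, measured 1.58 and 0.748 FPKM in ND, 0.995 and 0.363 under HFD, 3.36 and 2.3 under HSD, and 2.33 and 1.68 under HFSD, from 3 to 24 fragments. Apart from ND replicate 1 it reached 1 FPKM only in retinas with sucrose, and it would not have passed the filter through the others. Its log2 difference was 0.85 (SE 0.21, limma adjusted p = 0.133), which is given as a description. MID1IP1, its paralogue and an activator of acetyl-CoA carboxylase, had a log2 difference of -0.53 (SE 0.20, limma adjusted p = 0.22). USF2, a transcription factor of the FASN promoter, was the highest at 183 to 220 FPKM.

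All 5 listed targets of ChREBP were tested, and 0 were higher with sucrose at an unadjusted p below 0.05, while KHK, the fructose kinase, and PNPLA3, a lipase and acyltransferase of lipid droplets, were lower. Over all genes tested, 18.3% passed this threshold. KHK had a log2 difference of -0.26 (SE 0.09, limma adjusted p = 0.194). By sign, 2 of the 5 were higher with sucrose and 3 lower. Of the higher, ARRDC4 measured 1.59 to 2.23 FPKM with sucrose and 1.31 to 1.56 without. Such a lack of overlap was seen in 12.9% of all genes tested. PNPLA3 measured 135 and 122 FPKM in ND, 94.5 and 102 under HFD, 113 and 110 under HSD, and 79 and 89.7 under HFSD. All retinas of the 3 diets lay below both ND retinas, and the HFSD log2 fold change was -0.61 (SE 0.12, limma adjusted p = 0.215).

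Of 16 genes of activation, transport and incorporation, 11 were tested. Between diets with and without sucrose 1 was higher and 2 lower at an unadjusted p below 0.05, beside the 18.3% of all genes tested. The higher gene was ACSL4, an acyl-CoA synthetase that favours arachidonic acid, with 24.4 to 27.7 FPKM with sucrose and 15.5 to 24.1 without. ACSL5 and MFSD2A were the lower ones. ACSL5, an acyl-CoA synthetase, measured 2.54 and 2.62 FPKM in ND and 0.349 to 0.848 in the other diets. It reached 1 FPKM in the ND retinas alone and so entered the tests only through the group where it was high. Its log2 fold change in HFSD was -1.24 (SE 0.24, limma adjusted p = 0.224), which is given as a description. Summed pigment epithelium markers were also higher in ND, at 317 and 239 FPKM against 24.4 to 77.9 in the other diets. Their part in the ACSL5 values was not tested. MFSD2A, the carrier of lysophospholipid docosahexaenoic acid into retina and brain, measured 2.41 to 9.28 FPKM without sucrose and 1.35 to 2.3 with. That log2 difference was -1.28 (SE 0.29, limma adjusted p = 0.113), and it passed the threshold, at -1.59, when ND replicate 1 was left out. ACSL6, which favours docosahexaenoic acid as substrate, was the most abundant at 54.9 to 78.4 FPKM.

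Of 15 genes of cholesterol synthesis and uptake, which SREBP2 drives, 11 were tested. All 11 had lower values in HFD, with a median log2 fold change of -0.12, beside 0.0063 over all genes tested. Between diets with and without sucrose 7 were higher and 4 lower, none at an unadjusted p below 0.05. HMGCS1 had a log2 difference of 0.31 there (SE 0.19, limma adjusted p = 0.418) and STARD4 one of 0.22 (SE 0.14, adjusted p = 0.407). In ND replicates 1 and 2 HMGCS1 measured 60.2 and 31 FPKM and STARD4 15.1 and 10.5. Both differences thus depend on which ND retina is counted.

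Genes with patterns nearest to a member were sought among all genes tested, by the root mean square difference of log2(FPKM + 1), each gene centred on its own mean over 8 retinas. Nearest to FADS2 were STAT6 (0.0797), RHOG (0.111) and ELOVL5 (0.123), beside a median of 0.385 over all genes. STAT6 measured 4.35 and 3.1 FPKM in ND and 1.93 and 1.77 in HSD. Nearest to ELOVL6 were INSYN2B (0.088), HMGCS1 (0.0889) and DPP10 (0.0942), beside a median of 0.335. HMGCS1, the synthase at the start of the cholesterol pathway, repeated the gap between the ND retinas, with 60.2 and 31 FPKM. Nearest to FADS1 were DMAC2L (0.0554), CLIP2 (0.0613) and CAMKK2 (0.0634), beside a median of 0.227. These are likenesses over 8 libraries on the same 4 diets, and no test was made of them.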

How the data were processed

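Total RNA of dissected retinas was sequenced with a TruSeq kit on an Illumina instrument. As the methods state and the submitters' processing notes name in part, the authors checked reads with FastQC, trimmed and mapped these with TopHat2 to a rabbit genome, dropped those with several locations and computed FPKM with an R script. What this removed from paralogues such as the FADS or ELOVL genes was not tested. The genome build and annotation are not given in the sources used here, and no coordinates are printed. The deposited FPKM values were used as given for each library. The number of value columns without a sample was 0.

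The FPKM of each gene step by what 1 fragment is worth. Whole fragments were recovered for 99.99% of values above 0, within 0.02 fragment, and give counting error only. This step was tested on simulated data, as was the fit.

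limma 3.58.1 (R 4.3.3) was fitted with a mean-variance trend to log2(FPKM + 1) of 8 libraries in 4 diet groups. Fold changes are on this scale, which understates those of low genes. Tests covered protein-coding genes that reached 1 FPKM in 2 or more libraries, with Benjamini-Hochberg adjustment over all 12204 and a threshold of 0.05. The fold rule of the study was counted without a test. Alternatives were other pseudocounts, filters and scalings, voom on recovered fragments and leaving out each library.

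Members, lists and tests were chosen with earlier results of these data known. The genes named were the members, from each list the most abundant gene and the 2 with the smallest p, and the 3 nearest patterns for the 3 members with the largest ratio between diet means. SLC25A1, HACD3, ELOVL7, INSIG1, NR1H3, PRKAA2, ACACB, ACSL4, ARRDC4 and FADS3 were named after their values were seen. A gene that the rule names is not reported here.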

Additional observations from a re-analysis of the deposited data

How the results depend on the processing

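With 2 retinas per diet, a value rests on single libraries. Of 42 values (7 members in 6 comparisons), 25 changed sign in at least 1 of 18 alternatives, none of them above 0.40 in size in the main fit, and 0 members were called in any. FADS2 kept its lower direction in HSD (log2 fold change -1.08 to -0.66, limma adjusted p 0.0928 to 0.643) and between diets with and without sucrose (-0.66 to -0.45, adjusted p 0.0658 to 0.305). Its log2 fold change ran from -0.50 to -0.08 in HFD and from -0.74 to -0.32 in HFSD, with the smallest sizes when ND replicate 1 was left out. Of 554 alternative values of 31 fold changes of named genes, 544 kept direction and side of the threshold. Apart from FADS2, each gene was taken in the comparison with its smallest p, where a change of sign is least likely. None of these fold changes passed the threshold in the main fit, so this count is no measure of stability. Of the 7 members, ELOVL6 had the fewest fragments, 100 to 226.

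Replicate numbers did not mark pairs: deviations of same-numbered libraries correlated at -0.165 to 0.0813 over 6 pairs of diets. With the replicate block, 0 members were called, FADS2 had an adjusted p of 0.312 in HSD and 0.149 between diets with and without sucrose, and 25 genes in place of 42 were called over all genes in the latter comparison.

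Rescaling FPKM to a common sum (TPM) moved the median of the members between diets with and without sucrose to 0.07, as it moved the median of all genes to 0.0699. The members whose groups did not overlap became 4 in HFD (26.2% of all genes), 1 in HSD (39.9%), 2 in HFSD (42.5%) and 0 between diets with and without sucrose (13.2%). FADS2 with lard and cholesterol turned to -0.0043. ELOVL4 in HSD turned to 0.03, and to 0.0097 with voom. FPKM summed to 653354 in HFD replicate 1, to 611233 in ND replicate 2 and to 564389 to 577406 in the other retinas. Rescaling divides by these sums, so that it lowers HFD replicate 1 and ND replicate 2 most. Why the sums differ was not tested.

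Leaving out each library in turn gave medians of the members from -0.18 to -0.02 in HFD, -0.19 to -0.07 in HSD, -0.10 to 0.06 in HFSD, -0.06 to 0.07 for sucrose, -0.03 to 0.08 for lard and cholesterol and 0.19 to 0.42 for the interaction. Fold changes ran from -0.08 to 0.03 for ELOVL4 in HSD, -0.01 to 0.81 for ELOVL6 in HFSD, -0.08 to 0.13 for FADS2 with lard and cholesterol and -0.01 to 0.27 for MDH1 in HFD, its comparison with the smallest p. With fewer libraries more genes lack overlap by construction: 3 to 5 members in HFD beside 59.5% to 67.3% of all genes, 4 to 6 in HSD beside 64.7% to 75.4%, 3 to 6 in HFSD beside 64.2% to 79.4%, and 0 to 1 for lard and cholesterol beside 2.70% to 4.09%. Members past the fold rule in HFSD numbered 0 to 1.

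Over all genes, the 42 calls between diets with and without sucrose became 4 to 82 with a library left out and 8 to 141 in other alternatives. The 7 in HSD became 3 to 17 and 2 to 7, the 2 in HFSD 2 to 11 and 0 to 4, the 1 in HFD 1 to 2 in both, the 1 for lard and cholesterol 0 to 5 and 0 to 1, and the 1 in the interaction 0 to 10 and 0 to 1. With voom 5 of 18 sucrose calls were higher, against 7 of 42. For the interaction the libraries compared are all 8, so that alternative is the main fit and has no value of its own.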
